A study of Papio anubis with 28 samples.

Results

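Bladder tissue regenerated on a cell-seeded scaffold was compared with the native bladder of the same animal, pooled over 2 scaffolds, to find what regeneration shares between them. All libraries of regenerated tissue and native bladder from the SIS and PRS arms were taken, paired by the animal codes in the labels, with the arm kept as a term. They are 18 of the 28 libraries of the series, from 9 of its 14 animals. The remaining libraries come from animals with bowel grafts and enter only an alternative fit.

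The series holds RNA sequencing of urinary bladder from olive baboons (Papio anubis), and each animal gave 1 native and 1 grafted piece of about 50 mg. The animals are labelled WT. The SIS arm has 5 animals and the PRS arm 4, each with a native and a regenerated library. The animal codes hold the letter M for SIS animals 4 and 5 and PRS animals 3 and 4, and F for the others. The letter was not a term of the fit. The grafts of both arms carried primary bone marrow cells, named MSC/CD34+ HSPC, which is read here as mesenchymal stromal cells with CD34+ haematopoietic stem and progenitor cells. The labels give this graft as the treatment of the native libraries too, and no library is from an animal without a graft. SIS is commonly small intestinal submucosa, a sheet of decellularised matrix; the meaning of PRS, the ages, the time from surgery to sampling and the layer of the wall taken were not given in the sources used here. No scaffold without cells is among these groups, so scaffold, cells and surgery cannot be told apart.

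The bladder wall has an inner lining, the urothelium, in which TP63-positive basal cells lie under umbrella cells that carry plaques of uroplakin proteins. Beneath it are a stroma with vessels and the detrusor, a thick coat of smooth muscle whose contraction empties the bladder. Healing tissue commonly passes through an inflammatory phase with cytokines and immediate early transcription factors, followed by new vessels, collagen deposition and return of specialised cells.

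The 18 libraries held 22576355 to 35669026 counts, and levels are given as CPM, counts scaled to a common library total with TMM-adjusted sizes. Markers of urothelium, smooth muscle, stroma and endothelium were found in every library, while 4 markers of gut epithelium summed to at most 0.207 CPM in native and 0.784 CPM in regenerated tissue. The mitochondrial share of counts was 8.44% ± 1.72 (SD, n = 9) in native and 8.90% ± 1.68 (SD, n = 9) in regenerated tissue, a paired difference of 0.459 percentage points (two-sided exact sign-flip permutation test, p = 0.527, higher in 4 of 9 animals). A count of 0 in a single library allows a level of 0.0794 to 0.147 CPM over the 18 libraries (3 counts on TMM-adjusted sizes, counting error only). Some libraries stood apart: the native libraries of PRS animal 4 and SIS animal 4. So did the regenerated library of SIS animal 2, in cytokine and matrix genes. On the log2(CPM + 1) scale the native library of SIS animal 4 had a neuronal list mean of 3.36 (other native libraries at most 1.70). It was lowest in the umbrella and intermediate urothelium list, at 4.37 against at least 6.16. The mean of the intestinal list covers only the 7 of its 24 members that passed the filter on low counts. The 4 gut markers above summed to at most 0.207 CPM in every native library. The native library of PRS animal 4 was at 7.05 for the intestinal list (other native libraries at most 3.10) and 6.42 for B and plasma cells (at most 4.67). It was at 4.70 for T and natural killer cells (at most 3.23), 6.53 for interferon response (at most 4.66) and 5.41 for cell division (at most 3.51). Its smooth muscle list was low, at 6.78 against at least 8.17 in the others. Without PRS animal 4 the pooled log2 fold change was 4.40 for CDH26, 6.38 for CSF3, 3.16 for CXCL8, 2.87 for CLCA1 and -1.04 for HOPX. Without SIS animal 2 it was 3.78 for CDH26, 5.69 for CSF3, 2.71 for CXCL8, 3.45 for CLCA1 and -0.99 for HOPX, and the values with all 9 animals are given below. Fewer cells of a type and less RNA per cell cannot be told apart in bulk tissue.

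No gene of 16487 tested passed an adjusted p of 0.05 in the pooled comparison by edgeR's quasi-likelihood test with Benjamini-Hochberg adjustment (0%), and the lowest adjusted p was 0.998. At an unadjusted p under 0.05, 494 genes were higher (3.00%) and 163 lower (0.989%) in regenerated tissue. In edgeR these 657 genes are a smaller share than the 0.05 expected at that p if no gene changed. At that p DESeq2 had 1392 genes and limma voom 2284, each a larger share than 0.05. DESeq2 called 73 genes higher (0.443%) and 5 lower (0.0303%), and limma voom called 0. Of those 78 genes, 58 had the same sign in at least 8 of 9 animals and 19 in all 9. Of all genes, 55.0% had a pooled log2 fold change above 0, with a median of 0.04. This share, and the shares at an unadjusted p under 0.05, are the background for the list counts below. The difference between regenerated and native tissue had the same sign in every animal for few genes: 45 were higher in 9 of 9 (0.273%) and 12 lower in 9 of 9 (0.0728%). An exact sign test over 9 animals cannot give a two-sided p under 0.00391. With random signs a share of 0.00391 of genes would have the same sign in all 9 animals, and the genes found do not exceed that share. The same sign in 9 of 9 animals, given for single genes below, is therefore a description only. All values below are therefore given as measured differences and not as calls, with the standard error (SE) or 95% interval from the same fit. The adjusted p of each gene named from this fit was at least 0.998, edgeR. The 95% interval of the pooled change lay within 2-fold either way for 51.6% of genes and within 4-fold for 75.2%; for the remaining genes the interval allows changes beyond 4-fold.

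Of the genes of smallest p on the higher side, CDH26 and CSF3 had large pooled differences. CDH26, a cadherin of epithelial cells, lay between 0 and 7.25 CPM in native bladder (median 1.99) and between 2.31 and 197 CPM in regenerated tissue (median 18.5). It was higher in 9 of 9 animals, although the 2 groups overlap. Its pooled log2 fold change was 3.80 ± 0.72 (SE), with 2.87 in the SIS arm and 4.73 in the PRS arm. CSF3, the granulocyte colony-stimulating factor, had a median of 0.0437 CPM in native bladder (0 to 7.01) and of 2.79 CPM in regenerated tissue (0 to 79.1). Only PRS animal 2 had no read of it in either tissue, and the other 8 animals were higher after regeneration. The pooled log2 fold change of CSF3 was 5.53 ± 1.01 (SE). Its native median lay below the 0.0794 to 0.147 CPM that a count of 0 allows, so the size of that change is uncertain. DESeq2 gave CDH26 an adjusted p of 7.76e-08 and CSF3 one of 5.77e-07.

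VMP1, a membrane protein needed for autophagy, showed a small difference with little spread. It ran from 20.9 to 95.5 CPM in native bladder (median 53.6) and from 47.4 to 147 CPM in regenerated tissue (median 116). Its log2 fold change was 0.92 ± 0.18 (SE), nearly the same in the SIS arm (0.88) and the PRS arm (0.96). RGS4, which shortens signalling by G proteins, had medians of 1.71 CPM (0.178 to 8.46) and 5.84 CPM (2.72 to 57.7), a log2 fold change of 2.17 ± 0.44 (SE). KIF26B, a kinesin-family protein, had medians of 2.54 CPM (0 to 22.1) and 6.96 CPM (0.951 to 74.1), a log2 fold change of 2.04 ± 0.44 (SE). For GALNT5, an enzyme that starts O-linked glycosylation, the medians were 3.73 CPM (0.423 to 8.92) and 9.31 CPM (3.02 to 34.8), with a log2 fold change of 1.77 ± 0.39 (SE). VMP1, RGS4, KIF26B and GALNT5 were each higher in 9 of 9 animals while the ranges of the groups overlapped.

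**Figure D1:**
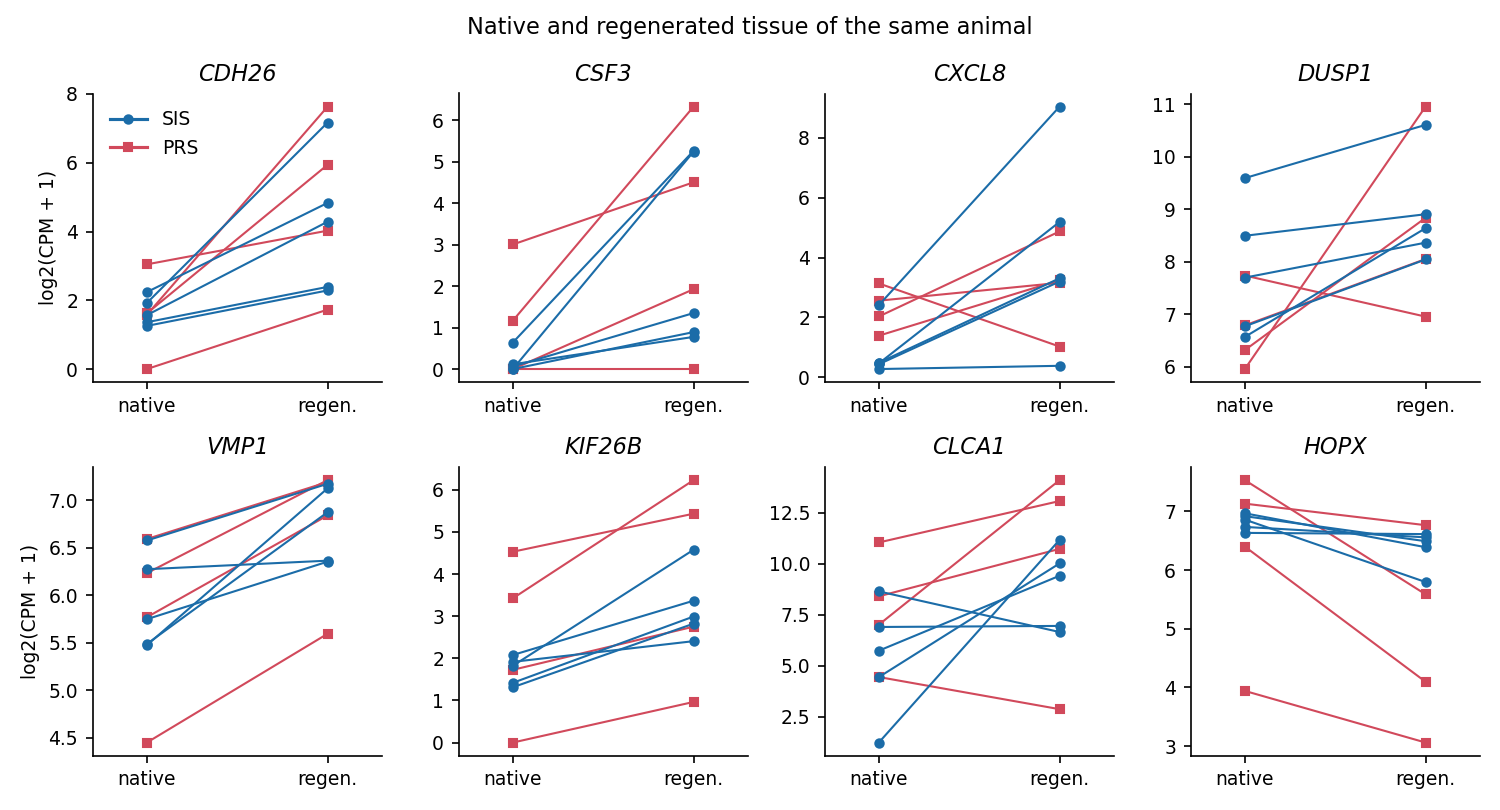
Level of 8 genes in native and regenerated (regen.) tissue as log2(CPM + 1); each line joins the libraries of 1 animal, circles for SIS (5 animals) and squares for PRS (4 animals). CDH26, VMP1 and KIF26B go up and HOPX goes down in all 9 animals, CXCL8 and DUSP1 are lower in PRS animal 2 only.

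TCN1 had the smallest p of all, yet its level was carried by few animals. TCN1, a vitamin B12-binding protein, had no read in most native libraries (median 0, highest 13.9 CPM, in PRS animal 4). In regenerated tissue its median was 0.159 CPM and its highest levels were 316, 161 and 16.3 CPM in PRS animal 4, PRS animal 3 and SIS animal 4. Its log2 fold change of 6.61 ± 0.99 (SE) thus rests on 3 animals with a regenerated level above 1 CPM. LRRN4, a membrane protein of mesothelium among other tissues, had 8 reads over the 9 native libraries and 467 over the 9 regenerated ones, with regenerated levels from 0 to 8.37 CPM, and was higher in 7 animals and lower in 0.

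Among the genes of smallest p on the lower side, HOPX was lower in 9 of 9 animals. HOPX, a homeodomain protein that does not bind DNA, ran from 14.3 to 184 CPM in native bladder (median 115) and from 7.33 to 108 CPM in regenerated tissue (median 82.8). Its log2 fold change was -0.94 ± 0.22 (SE), with -0.46 in the SIS arm and -1.42 in the PRS arm. HSD17B2, an enzyme that inactivates oestradiol and testosterone, had medians of 29.9 CPM (14.9 to 80.3) and 10.9 CPM (1.25 to 28.9) and was lower in 8 of 9 animals, with PRS animal 1 the exception. Its log2 fold change was -1.69 ± 0.47 (SE). DESeq2 gave HOPX an adjusted p of 0.0278 and HSD17B2 one of 0.0270. The other 6 genes of smallest p on this side, C11orf84, MRAP2, TSPYL5, COA5, SNN and BOLA1, had log2 fold changes between -0.87 and -0.55 and were lower in 6 to 8 animals. The change of C11orf84 was -0.03 in the SIS arm and -1.08 in the PRS arm, and that of SNN was -0.02 and -1.25; the difference between arms had an unadjusted p of 0.00393 for C11orf84 and 0.0103 for SNN (adjusted p 0.988 for each, edgeR).

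Immediate early genes, which cells transcribe within minutes of a stimulus or injury, lay on the higher side as a list. All 19 tested members had a pooled log2 fold change above 0, with a median of 0.97 against 0.04 over all genes, and 8 of 19 had an unadjusted p under 0.05. The median was 1.59 in the SIS arm and 0.74 in the PRS arm. Per animal, the mean of the list on the log2(CPM + 1) scale differed by 1.22, 1.56, 0.22, 2.14 and 2.33 in SIS animals 1 to 5 and by 2.02, -1.60, 2.36 and 0.10 in PRS animals 1 to 4. PRS animal 2 was the 1 animal with a lower mean. The number of members with a p under 0.05 was 3 without PRS animal 1, 3 without PRS animal 3, 5 without SIS animal 4 and 15 without PRS animal 2.

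DUSP1, a phosphatase that ends MAP kinase signals, ran from 61.0 to 773 CPM in native bladder (median 109) and from 123 to 1990 CPM in regenerated tissue (median 398). Its log2 fold change was 1.53 ± 0.51 (SE), higher in 8 of 9 animals. NR4A2, an orphan nuclear receptor, had medians of 16.3 CPM (6.07 to 53.7) and 61.4 CPM (11.3 to 498) and a log2 fold change of 1.74 ± 0.55 (SE). EGR1, a zinc finger transcription factor, had medians of 152 CPM (52.8 to 574) and 414 CPM (110 to 1311) and a log2 fold change of 1.18 ± 0.40 (SE). NR4A2 and EGR1 were higher in 7 of 9 animals.

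Cytokines and chemokines showed a similar picture. Of 20 tested members 18 lay above 0, with a median log2 fold change of 0.61; 5 were higher and 1 lower at an unadjusted p under 0.05. The median was 0.31, with 14 of 20 above 0, without PRS animal 1 and 1.01 without PRS animal 4. CXCL8, which attracts neutrophils, had medians of 1.61 CPM (0.207 to 7.78) and 8.47 CPM (0.301 to 528) and a log2 fold change of 3.07 ± 0.80 (SE). It was higher in 8 of 9 animals, by 5.03 in the SIS arm and 1.12 in the PRS arm, and the difference between arms had an unadjusted p of 0.0267 (adjusted p 0.988, edgeR). LIF, a cytokine of the interleukin-6 family, had medians of 2.81 CPM (0.524 to 14.9) and 15.9 CPM (4.05 to 272), with a log2 fold change of 2.51 ± 0.80 (SE). For PTGS2, the inducible cyclooxygenase of prostaglandin synthesis, medians were 6.66 CPM (1.79 to 10.2) and 25.4 CPM (4.47 to 662), with a log2 fold change of 1.89 ± 0.64 (SE).

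The highest regenerated values of CXCL8, LIF, PTGS2 and IL6 all came from SIS animal 2. IL6, the acute-phase cytokine, reached 628 CPM there and 0.410 to 7.42 CPM in regenerated tissue of the remaining 8 animals. Its pooled log2 fold change was 2.01 ± 1.26 (SE). Without SIS animal 2 the cytokine list still had 6 members higher at an unadjusted p under 0.05 and a median of 0.63. IL13, a cytokine of type 2 immunity, was named after its value was seen: it had 14 reads over the native and 209 over the regenerated libraries, at most 0.250 and 3.38 CPM, and was higher in 8 animals and lower in 0.

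**Figure D2:**
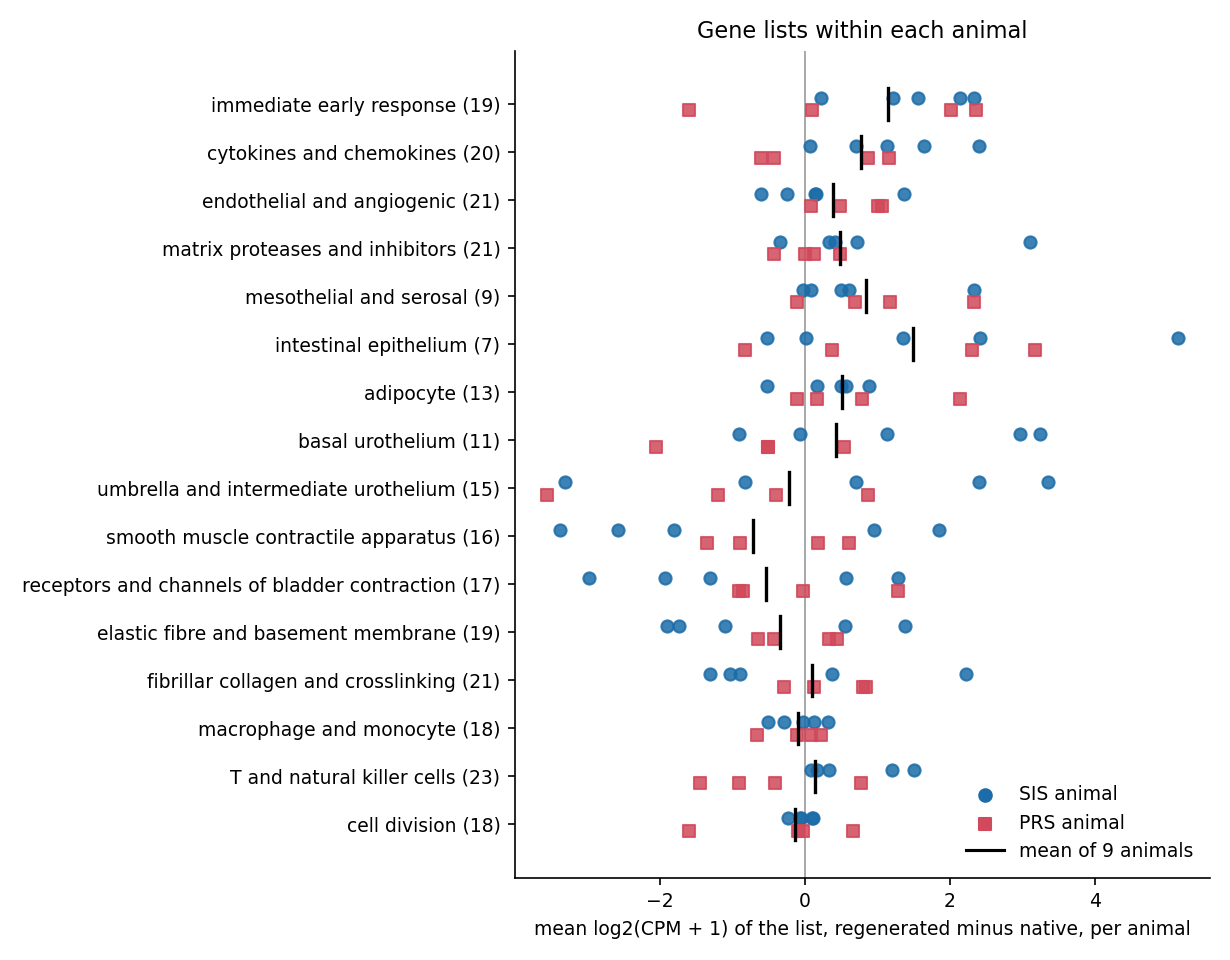
Mean log2(CPM + 1) of 16 gene lists, regenerated minus native, with 1 point per animal (circles SIS, squares PRS), the mean of 9 animals as a vertical bar and the number of tested genes in parentheses. Immediate early genes lie right of 0 in 8 of 9 animals, whereas the muscle list spreads from -3.38 to 1.85 and the umbrella list from -3.56 to 3.36.

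Vessel genes were mostly on the higher side. Of 21 endothelial and angiogenic genes 17 lay above 0 with a median log2 fold change of 0.40; 4 were higher and 1 lower at an unadjusted p under 0.05. The median was 0.14 in the SIS arm and 0.71 in the PRS arm, and 0.20 without SIS animal 2. VEGFA, the main growth factor of new vessels, had medians of 108 CPM (59.9 to 161) and 214 CPM (51.0 to 827) and a log2 fold change of 1.00 ± 0.30 (SE), higher in 8 of 9 animals. KDR, its receptor on endothelium, had medians of 9.63 CPM (3.85 to 22.8) and 15.4 CPM (7.06 to 53.5) and a log2 fold change of 1.09 ± 0.38 (SE). ANGPT2, which loosens vessel walls during sprouting, had a log2 fold change of 1.37 ± 0.47 (SE) with medians of 2.69 and 5.89 CPM. The pan-endothelial gene PECAM1 had medians of 84.7 and 89.6 CPM and a log2 fold change of 0.40 (95% interval -0.34 to 1.13), higher in 5 of 9 animals.

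The contractile apparatus of smooth muscle had all 16 tested members below 0 in the pooled estimate, with a median log2 fold change of -0.73, but none had a p under 0.05. The animals disagreed: the list mean differed by 0.96, 1.85, -1.80, -3.38 and -2.58 in SIS animals 1 to 5 and by -1.35, 0.61, -0.89 and 0.18 in PRS animals 1 to 4. Its mean over animals was -0.71 ± 1.74 (SD, n = 9), so the spread between animals exceeded the mean. ACTG2, the actin of visceral smooth muscle, ran from 342 to 20270 CPM in native bladder (median 8269) and from 450 to 19220 CPM in regenerated tissue (median 2169), a log2 fold change of -0.95 (95% interval -2.40 to 0.49). DES, the muscle intermediate filament desmin, gave -0.73 (95% interval -2.10 to 0.63). Without SIS animal 2 the median was -1.09 and 6 of the 16 members had a p under 0.05 on the lower side, whereas it was -0.38 without SIS animal 4 and -0.45 without SIS animal 5, with 0 members at that p. Receptors and channels of contraction had 4 of 17 members above 0 and a median of -0.62 (-1.05 without SIS animal 2, -0.22 without SIS animal 4), among them the tachykinin receptor TACR2 at -1.70 ± 0.98 (SE) and the oxytocin receptor OXTR, which lay on the other side at 1.00 ± 0.46 (SE).

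Umbrella and intermediate cell genes of the urothelium varied even more. Of 15 members 5 lay above 0, with a median log2 fold change of -0.17, and none had a p under 0.05; the median was 0.20 without SIS animal 2, 0.20 without PRS animal 2 and -0.54 without PRS animal 1. The list mean differed by -0.82, -3.30, 0.71, 3.36 and 2.40 in the SIS animals and by 0.87, -3.56, -1.19 and -0.39 in the PRS animals, in the same order as above. UPK2, a uroplakin of the umbrella cell plaque, ran from 28.5 to 936 CPM in native bladder (median 558) and from 10.5 to 963 CPM in regenerated tissue (median 161); its log2 fold change was -1.08 (95% interval -2.86 to 0.70). UPK1A gave -0.90 ± 0.84 (SE) and UPK3A 0.31 ± 1.01 (SE). In 8 of 9 animals the muscle list and the umbrella list differed in opposite directions, with PRS animal 3 the exception. Pieces of wall can hold different amounts of lining and muscle, and the part of this in any difference between tissues was not tested beyond the fit with a muscle term given below.

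**Figure D3:**
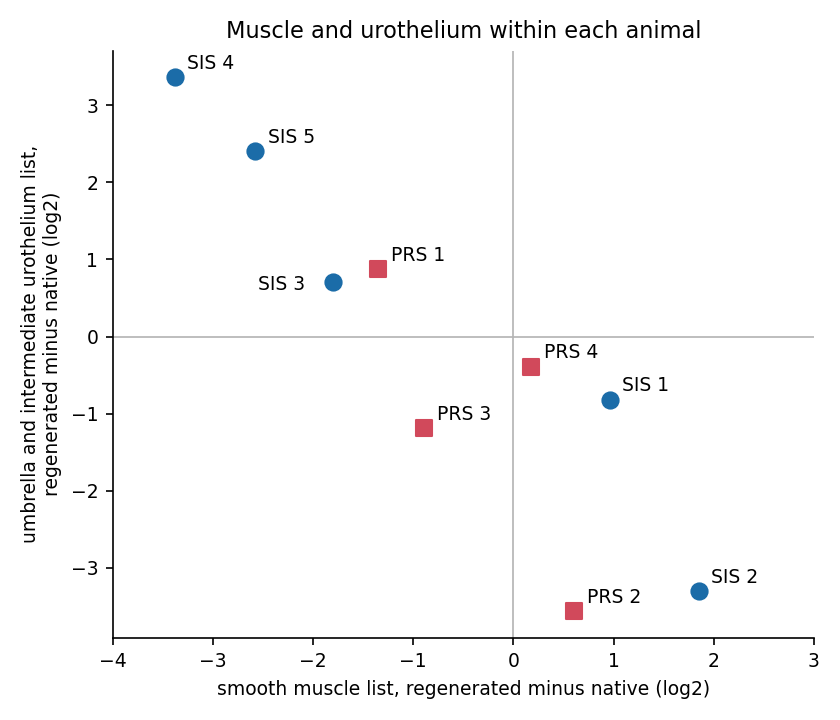
Regenerated minus native difference of the smooth muscle list (horizontal axis, log2) against that of the umbrella and intermediate urothelium list (vertical axis, log2), 1 point per animal. SIS animals 4 and 5 sit at upper left (less muscle, more urothelium), SIS animal 2 and PRS animal 2 at lower right, and PRS animal 3 is low on both.

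Basal urothelium genes had 8 of 11 members above 0 and a median log2 fold change of 0.39, with 1.19 in the SIS arm and -0.50 in the PRS arm; 2 were higher and 0 lower at an unadjusted p under 0.05, and the median was 0.03 without PRS animal 1. The mean difference of the basal list had the same sign as that of the umbrella list in 9 of 9 animals, and that of the squamous list in 8 of 9. KRT17, a keratin of basal and stressed epithelia, had medians of 4.77 CPM (0.541 to 48.4) and 50.2 CPM (0.909 to 241) and a log2 fold change of 2.36 ± 0.81 (SE), higher in 8 of 9 animals. TP63, the basal cell transcription factor, gave -0.50 ± 0.65 (SE), with 0.95 in the SIS arm and -1.95 in the PRS arm. Of 10 squamous differentiation genes 8 lay above 0, with 0 at a p under 0.05 and a median of 0.67 (1.44 in the SIS arm, -0.18 in the PRS arm). Without SIS animal 4 the median was 0.20, with 5 of 9 tested members above 0. PROM1, a membrane protein of progenitor and glandular epithelial cells, had medians of 1.25 CPM (0 to 34.3) and 24.4 CPM (1.16 to 219) and a log2 fold change of 3.62 ± 0.95 (SE).

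Genes of mucus-producing epithelium reached very high levels in some regenerated pieces. CLCA1, secreted by goblet cells, had a median of 119 CPM (1.37 to 2112) in native bladder and of 1036 CPM (6.37 to 17530) in regenerated tissue; it was higher in 7 of 9 animals, with a log2 fold change of 2.80 ± 1.49 (SE). FCGBP, a large protein of mucus, had a median of 16.5 CPM (2.41 to 11900) in native bladder and of 125 CPM (2.02 to 43900) in regenerated tissue (log2 fold change 2.94 ± 1.64, SE). PRS animals 3 and 4 held the 2 highest regenerated values of both genes, and the highest native values were those of PRS animal 4. RETNLB, a goblet cell protein named after its values were seen, was at 1147, 141 and 35.6 CPM in the regenerated tissue of PRS animal 3, PRS animal 4 and SIS animal 4, with no read in the regenerated tissue of the other 6 animals. OLFM4, a glycoprotein of gut crypts and inflamed epithelium, was at 1194 CPM in the regenerated and 1476 CPM in the native tissue of PRS animal 4. The intestinal list had 23 of 24 members in the table but only 7 passed the filter on low counts, 6 of them above 0. That filter needs counts in only a few libraries, so a gene can pass through the few pieces where it is high. The 6 of 7 is therefore not read as a shared direction. The 4 gut markers given at the start stayed near 0.

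Matrix genes did not differ in 1 direction. Fibrillar collagens and their crosslinking enzymes had 13 of 21 members above 0, near the 55.0% of all genes. Their median log2 fold change was 0.09 (-0.16 without SIS animal 2), with 0 members at a p under 0.05. COL1A1, the main chain of type I collagen, ran from 382 to 3373 CPM in native bladder (median 1667) and from 599 to 7103 CPM in regenerated tissue (median 1132), a log2 fold change of 0.21 (95% interval -0.69 to 1.12). Of 19 wound and activated fibroblast genes 14 lay above 0 with a median of 0.26; without SIS animal 2 it was -0.09, with 9 of 19 above 0. POSTN, a matrix protein of healing tissue, gave 0.58 ± 0.22 (SE) with medians of 125 and 138 CPM. Elastic fibre and basement membrane genes had 2 of 19 members above 0 and a median of -0.37, with -0.58 in the SIS arm and 0.04 in the PRS arm. It was -0.62 without SIS animal 2 and -0.12, with 6 of 19 above 0, without SIS animal 4. With the smooth muscle covariate described below 13 of 19 lay above 0, with a median of 0.08. COL4A6, a basement membrane collagen, gave -0.97 ± 0.40 (SE). ELN, elastin itself, gave 0.04 (95% interval -1.04 to 1.11). Of 21 TGF-beta and BMP signalling genes 11 lay above 0, near the share of all genes, with a median of 0.05. At an unadjusted p under 0.05, 3 of them were higher and 3 lower. The TGF-beta pathway inhibitors BAMBI and SMAD7 had log2 fold changes of -0.97 ± 0.32 (SE) and -0.55 ± 0.18 (SE), each lower in 8 of 9 animals, while GREM1, an inhibitor of BMP ligands, gave 1.51 ± 0.65 (SE).

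Immune cell genes lay on both sides. CSF1R, the growth factor receptor of macrophages, had medians of 25.2 CPM (17.0 to 54.6) and 20.05 CPM (3.12 to 31.2), a log2 fold change of -0.84 ± 0.29 (SE), lower in 8 of 9 animals. CHIT1, a chitinase of activated macrophages, lay on the other side at 2.77 ± 1.00 (SE), and CD68 gave 0.18 (95% interval -0.28 to 0.65). Of 18 macrophage genes 8 lay above 0, with 1 higher and 3 lower at a p under 0.05. Of 11 neutrophil, mast cell and eosinophil genes 5 lay above 0, with a median of -0.15 and 2 higher and 0 lower at a p under 0.05. Among them CPA3, a protease of mast cells, had medians of 20.4 CPM (9.54 to 53.4) and 39.5 CPM (21.9 to 167) and a log2 fold change of 1.28 ± 0.38 (SE), higher in 7 of 9 animals. T and natural killer cell genes had a median of 1.17 in the SIS arm and -0.70 in the PRS arm, with 0 of 23 at a pooled p under 0.05. The pooled median was 0.15, and ran from -0.17 without PRS animal 1 to 0.33 without PRS animal 4, whose native library was high in these genes. CD3E, a chain of the T cell receptor complex, gave 0.50 (95% interval -0.58 to 1.58).

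Genes of the seeded cell types were measured as 2 lists. Haematopoietic stem and progenitor cell genes had 9 of 14 members above 0, 1 higher at an unadjusted p under 0.05 and a median of 0.34 (0.04 in the SIS arm, -0.06 in the PRS arm). Over all genes 55.0% lay above 0 and 3.00% were higher at that p, so these counts are near the background. PROM1, given above among epithelial genes, is on this list too and was higher in 8 of 9 animals. CD34, carried by blood progenitors and also by vessels and stroma, had medians of 105 CPM (38.6 to 229) and 81.2 CPM (55.6 to 255) and a log2 fold change of -0.18 (95% interval -0.84 to 0.48). KIT, a receptor of progenitors, mast cells and interstitial cells, gave 0.69 ± 0.37 (SE). Mesenchymal stromal cell genes had 9 of 14 members above 0, 3 of them higher at a p under 0.05, with a median of 0.12 (-0.09 without SIS animal 2); CD44, a hyaluronan receptor also found on urothelium and leukocytes, gave 0.57 ± 0.22 (SE). None of these genes is limited to the seeded cells.

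**Figure D4:**
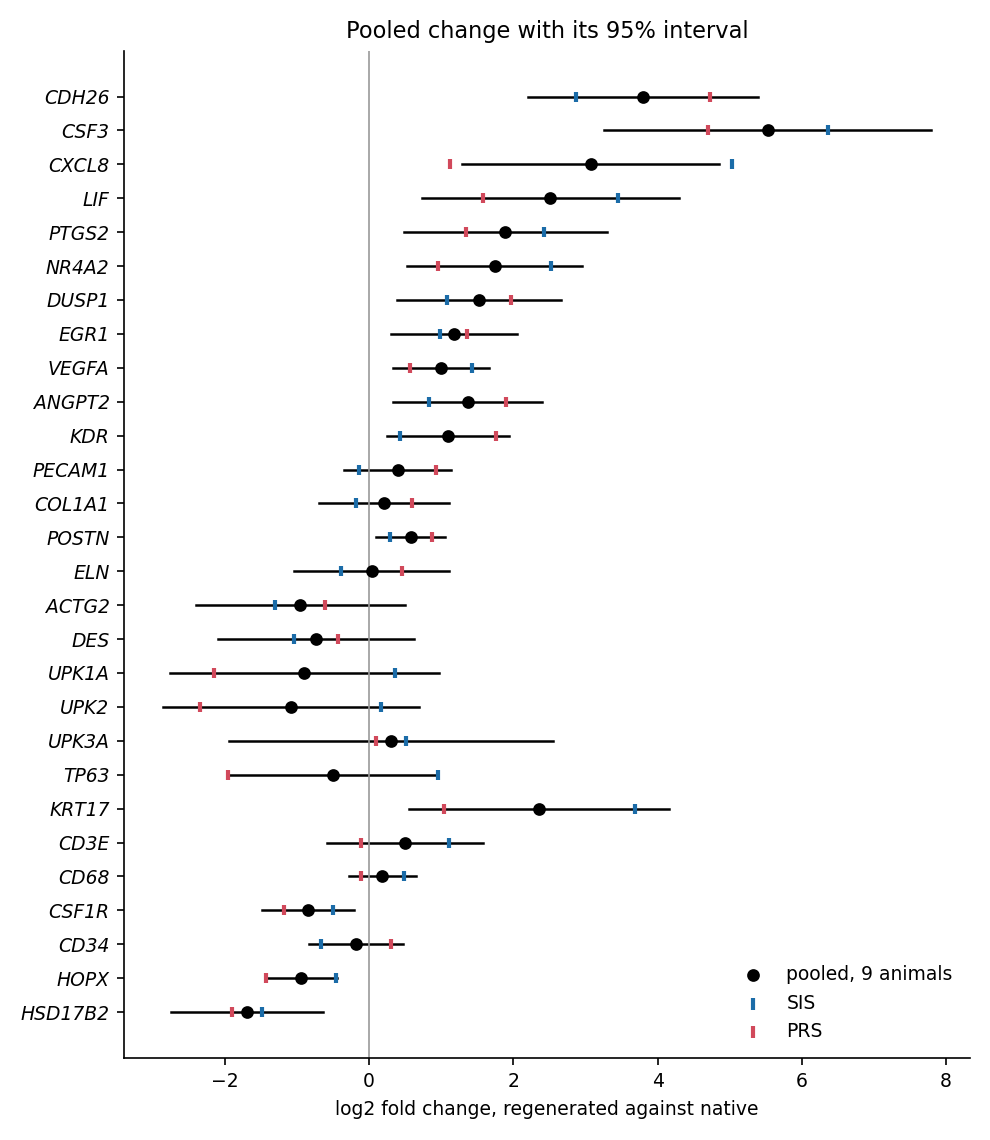
Pooled log2 fold change of 28 genes (black points) with its 95% interval (lines), and the change within the SIS arm and the PRS arm (coloured ticks). The intervals of CDH26, CSF3 and VEGFA lie above 0 and that of HOPX below it before adjustment, while those of ACTG2, DES and the 3 uroplakins reach across 0 and span more than 2 log2 units.

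The 2 arms share no library, so their changes can be set side by side. Over 16487 genes the fold changes of both arms were above 0 for 4544 (27.6%), below 0 for 3621 (22%) and of opposite sign for 8322 (50.5%). Pearson's r of the SIS and PRS changes across genes was 0.09, a description only, since genes are not independent replicates. A p under 0.05 in both arms with the same sign was found for 38 genes (0.230%), and with opposite sign for 10 (0.0607%). Within the SIS arm alone 0 genes passed an adjusted p of 0.05 in edgeR (588 at an unadjusted p under 0.05), and 0 in the PRS arm (585 at an unadjusted p under 0.05).

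The test of the difference between arms called 0 genes in edgeR (lowest adjusted p 0.988), with 514 at an unadjusted p under 0.05 (3.12%). DESeq2 called 11 of 16487. RAPH1, a regulator of actin at cell edges, had the smallest p: its log2 fold change was 1.10 in the SIS arm and -0.59 in the PRS arm, a difference of -1.69 ± 0.39 (SE). CLDN1, a tight junction protein of epithelium, gave 1.12 and -1.12, a difference of -2.25 ± 0.60 (SE). MEOX1, a homeobox gene of mesenchyme and activated fibroblasts, gave -0.74 and 1.99, a difference of 2.73 ± 0.73 (SE).

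The pooled fit was repeated with the mean of the smooth muscle list in each library as a covariate, an alternative chosen after the data were seen. At an unadjusted p under 0.05 it gave 811 genes higher (4.92%) and 632 lower (3.83%). Only TCN1 (log2 fold change 5.38, adjusted p 0.0418, edgeR) and the unnamed gene ENSPANG00000003493, chosen after its value was seen, passed an adjusted p of 0.05. ENSPANG00000003493 had no read in 7 of 9 native libraries and was at 278 CPM in that of PRS animal 4. At equal muscle signal, 8 of 15 umbrella and intermediate cell genes were lower at an unadjusted p under 0.05 and 0 higher, with a median of -0.99 against -0.17 without the covariate. UPK2 gave -2.07 ± 0.40 (SE) and UPK1A -1.93 ± 0.38 (SE), neither passing adjustment (adjusted p 0.432 for each, edgeR). On the higher side at an unadjusted p under 0.05 were 11 of 21 collagen genes, 9 of 19 wound genes and 10 of 21 endothelial genes, with 0 lower in each. COL3A1, a collagen of young connective tissue, gave 0.73 ± 0.20 (SE) against 0.34 ± 0.34 (SE) without the covariate. The immediate early list was little altered, with 8 of 19 higher and a median of 0.92. The covariate is measured in the same libraries and shares their expression changes, so a change in muscle itself cannot be told apart from a change in sampled muscle. The muscle list was lower on average (-0.71) and ran opposite to the umbrella list in 8 of 9 animals. The collagen list had the sign of the umbrella list in 0 animals. A muscle term thus moves umbrella genes down and collagen genes up, and these counts are not read as a loss of urothelium or a gain of matrix.

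**Figure D5:**
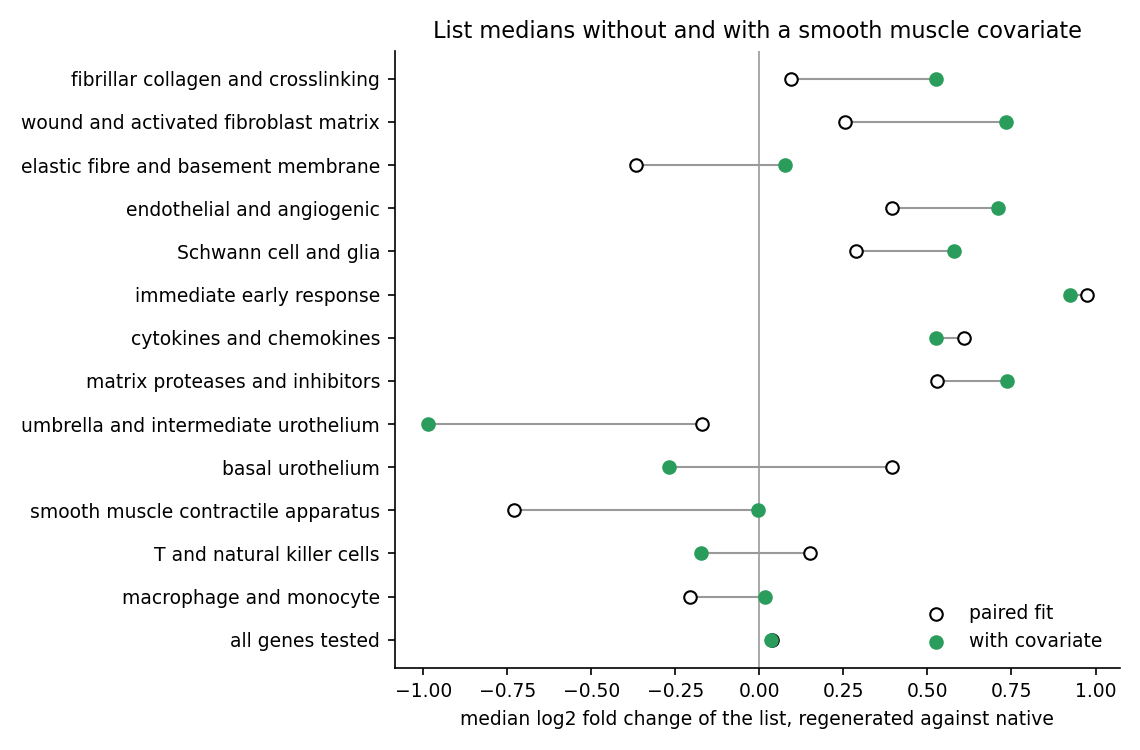
Median log2 fold change of 13 gene lists and of all genes tested in the paired fit (open circles) and with the smooth muscle list as a covariate (filled circles). The umbrella list goes from -0.17 to -0.99 and the collagen list from 0.09 to 0.52, while the immediate early list goes from 0.97 to 0.92.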

How the data were processed

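The deposited table holds counts of reads per gene, not normalised by the authors. The tools named in the submitters' processing notes are featureCounts 1.5.0-p3, HISAT2 2.0.5 and StringTie 1.3.3b. The build, annotation and strand setting were not given in the sources used here. Overlapping and antisense genes therefore cannot be separated. Per the labels' protocols, RNA was poly-A selected and libraries were directional and paired-end. Of 27533 genes, 6280 have no symbol.

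Genes passing filterByExpr (minimum count 10) were scaled by TMM and fitted with edgeR 4.0.16 in R 4.3.3 (quasi-likelihood), with 9 animal blocks and a graft term per arm; the pooled change is the mean of both arms' changes, with Benjamini-Hochberg adjustment and a threshold of 0.05. Standard errors were derived from the size of the log2 fold change and the test's F value. Per-animal values are log2(CPM + 1). On simulated data of this design over 16487 genes, 14% of genes changed by 1 log2 unit, 52% by 2, 80% by 3 and 86% by 4 were recovered, with 6 false calls. Counts were drawn for each gene on its own, without shifts shared by the genes of a tissue layer. The recovery therefore checks the code and is not the sensitivity in the real libraries.

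Pairs come from the animal codes in the labels: native and regenerated deviations from the group means correlated over 0.1 in 5 of 9 animals. The own pair correlated best within its arm in 4 of 9 animals. In SIS animals 1 to 5 the correlation was -0.06, -0.30, 0.46, -0.17 and -0.21, so the counts give little support for the pairing in that arm. No batch is named in the labels.

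The members and the 33 gene lists were chosen with earlier results of these data known. The table held 566 of 606 list symbols. Named were, in each direction, up to 12 genes passing the threshold with the same sign in at least 8 animals, otherwise the 8 of smallest p, then up to 4 of smallest p per list, fixed markers, and 5 for the difference between arms; not all are printed. Genes named after their values were seen are marked. No sequences are printed. Alternatives were no animal block, equal weight per animal, all 28 libraries, RLE scaling, no filter, robust fitting, limma 3.58.1 voom, DESeq2 1.42.0, another pseudocount (0.1), each animal left out and, added after seeing the data, a smooth muscle covariate.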

Additional observations from a re-analysis of the deposited data

Results flagged for a closer look

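In 134 groups of 4 to 9 values (list and gene differences over the 9 animals, totals and mitochondrial shares within groups), 9 had a highest or lowest value separated from the rest by more than Dixon's 95% critical value, and chance flags about 1 in 20 groups. The 9 found are near that rate, and groups drawn from the same animals are not independent. Of these 9, 5 came from SIS animal 2, whose regenerated tissue was far above its native bladder: the mean difference of the wound and activated fibroblast list was 2.88 (other animals -0.73 to 0.55), that of matrix proteases and inhibitors 3.11 (-0.43 to 0.72) and that of TGF-beta and BMP signalling 1.12 (-0.54 to 0.20). In the same animal IL6 differed by 8.49 on the log2(CPM + 1) scale (-1.37 to 2.78 in the others) and PTGS2 by 6.15 (-0.55 to 2.76). PRS animal 4, whose native library stood apart in both lists and in mucus genes, had a low difference of the interferon response list (-1.23; others -0.24 to 0.65) and of the cell division list (-1.59; others -0.23 to 0.67). SIS animal 4 was low in the neuronal list (-2.16; others -0.27 to 0.50). PRS animal 2 was low in CD14, the endotoxin co-receptor of monocytes, at -1.31 (others -0.60 to 0.08).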

How the results depend on the processing

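The pooled comparison gave 0 calls in edgeR without the replicate block (823 genes at an unadjusted p under 0.05), with equal weight for each animal, with DESeq2's size factors, without a filter, with robust fitting, in limma voom and in each fit that left out 1 animal (range 0 to 0). With all 28 libraries it gave 1 call (TCN1, adjusted p 0.0388, edgeR), with the smooth muscle covariate 2, and in DESeq2 78. Of 16487 genes tested, DESeq2 also called 11 for the difference between arms, 18 in the SIS arm and 92 in the PRS arm. For these comparisons edgeR called 0 each. limma voom called 1 in the SIS arm, 0 in the PRS arm and 0 for the difference. The cause was not tested. The number at an unadjusted p under 0.05, 657 in all, was 1209 without PRS animal 2, 408 without PRS animal 3 and 391 without SIS animal 4. The paired difference of the mitochondrial share was -0.0116 without PRS animal 2 (range -0.0116 to 0.791 with 1 animal left out). Signs also turned: in limma voom CD68 was -0.076, COL1A1 -0.22, COL3A1 -0.04 and ELN -0.29; without the block CD3E was -0.12; with the covariate CD34 was 0.14, UPK3A -0.99, DES 0.025 (-0.73 without it) and RETNLB -0.041 (9.21 without it, from 3 animals). With 1 animal left out, UPK3A ran from -0.23 to 0.83, COL1A1 from -0.054 to 0.41, ELN from -0.31 to 0.24 and S100B from -0.016 to 0.62. With 9 animals and 7 residual degrees of freedom, the median SE was 0.322 log2 units. Depth limits the genes with few reads, such as LRRN4 and IL13. It also limits CSF3, TCN1 and ENSPANG00000003493, whose native medians lay below the level that a count of 0 allows.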

Other observations

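Some cell types outside the normal wall lining were measured in both tissues. Of 13 adipocyte genes 12 had a pooled log2 fold change above 0, with a median of 0.81, and 3 had an unadjusted p under 0.05. The median was 0.42 without PRS animal 3, with 1 member at that p, and 0.89 without PRS animal 4, with 6. ADIPOQ, the fat cell hormone adiponectin, had medians of 0.775 CPM (0 to 11.02) in native and 5.42 CPM (0 to 36.5) in regenerated tissue, and GPD1, an enzyme of glycerol metabolism, had medians of 4.09 and 8.89 CPM and was higher in 8 of 9 animals. Of 9 mesothelial and serosal genes 7 lay above 0, with a median of 1.52 (0.82 without PRS animal 2, 2.30 without PRS animal 4). MSLN, the mesothelial surface protein mesothelin, was above 40 CPM in the regenerated tissue of SIS animal 4 (293 CPM) and of PRS animals 1, 3 and 4 (46.9, 182 and 110 CPM), while the highest native level was 27.4 CPM.

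The neuronal list had 4 of 13 tested members above 0, 2 higher and 0 lower at an unadjusted p under 0.05, and a median of -0.13 (-0.73 in the SIS arm, 0.13 in the PRS arm). The median ran from -0.48 without PRS animal 2 to 0.16 without PRS animal 3. It was 0.11 without SIS animal 4, whose native library was high in this list. CHGA, a protein of secretory granules named after its values were seen, had medians of 0.396 CPM (0 to 29.1) and 15.8 CPM (0.427 to 83.9) and was higher in 8 of 9 animals (DESeq2 adjusted p 0.000205). TAC1, the substance P precursor, had medians of 1.33 CPM (0.372 to 9.10) and 22 CPM (0 to 62.2), with a log2 fold change of 2.95 ± 1.06 (SE). STC1, a secreted glycoprotein hormone also named after its values were seen, was higher in 9 of 9 animals, with medians of 2.17 CPM (0 to 9.54) and 9.01 CPM (2.13 to 273).

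Of 24 HOX and regional mesenchyme factors 10 lay above 0, with a median of -0.15; 2 were higher and 1 lower at an unadjusted p under 0.05, and 0 passed adjustment in edgeR. BARX1, a homeobox gene of stomach mesenchyme, had medians of 0.262 CPM (0 to 11.1) and 4.84 CPM (0.294 to 44.2) and was higher in 8 of 9 animals. TBX4, a T-box gene of limb and lung mesenchyme, had medians of 27.6 CPM (0.0801 to 89.4) and 3.65 CPM (0 to 75.3) and was lower in 7 of 9 animals, with a log2 fold change of -2.23 ± 1.10 (SE).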
